A study of Homo sapiens with 3 samples.

Results

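The ATP-binding cassette (ABC) transporter genes were followed after knockdown of RBCK1 in Caki-1, a cell line established from a human renal carcinoma. All protein-coding entries whose symbol is ABC, a subfamily letter from A to G and a number were taken. This gave 45 genes of the 44591 entries in the table, of which 19233 are protein-coding. They comprise 12 ABCA, 9 ABCB, 11 ABCC, 4 ABCD, 1 ABCE, 3 ABCF and 5 ABCG genes. ABC family members with other names, such as TAP1, TAP2 and CFTR, are not among the 45 and are given separately.

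ABC proteins bind and hydrolyse ATP through a pair of nucleotide-binding domains, and most use that energy to carry lipids, drugs, conjugates, peptides or metal-containing compounds across a membrane. In the kidney tubule, pumps of the ABCB, ABCC and ABCG subfamilies move drugs and their glutathione, glucuronide or sulfate conjugates out of the cell, and they are known from renal cancer as multidrug resistance genes. Proteins of the ABCE and ABCF subfamilies have no membrane domain and act on ribosomes.

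Caki-1 cells received a control siRNA (si-Control) or either of 2 siRNAs directed at RBCK1, and total RNA depleted of ribosomal RNA was sequenced 48 h later. RBCK1, also named HOIL-1, encodes a subunit of the linear ubiquitin ligase complex. The sample labels call the knockdown libraries si-HOIL-1#1 and si-HOIL-1#2, and they are named si-RBCK1 #1 and si-RBCK1 #2 here. The siRNAs were used at 10 nmol/L according to the general transfection paragraph of the study's methods. Each condition had 1 library, so differences were not checked against replicates, no p-value was computed, and each siRNA was compared with si-Control on its own. All values come from cultured cells in bulk, where fewer cells of a kind and less RNA per cell cannot be told apart.

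RBCK1 itself had 33.3 RPKM (read counts divided by gene length and by library size) in si-Control, 9.97 in si-RBCK1 #1 and 12.3 in si-RBCK1 #2. Both knockdown libraries were thus lower than si-Control for the targeted gene, with 29.9% of its level for #1. The sense strands of the siRNAs are shown because their seed can also match other transcripts, ABC transcripts included. Capitals mark the bases that pair with guide positions 2 to 8.
si-RBCK1 #1: ggtgcaccttcATCAACAa
si-RBCK1 #2: ggattaccagcGATTTCTa
In the longest coding RBCK1 transcript of 2774 nt, they matched bases 1307 to 1325 and 1749 to 1767. No ABC transcript held a full match to either siRNA, among 45 searched.

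The libraries held 36926834 reads for si-Control, 40442939 for #1 and 36344428 for #2, as recovered from the steps in the RPKM values. Of the renal epithelial markers, 7 of 12 had usable levels, among them PAX8 with 124, 82.5 and 107 RPKM in the order si-Control, #1, #2. At least 2-fold higher with each siRNA were 2 of the 7, VIM (664, 1512 and 1392 RPKM) and KRT8 (65.6, 172 and 238 RPKM). Of all usable genes, 2.85% were so with #1 and 2.45% with #2. Below si-Control were 4 of the 7 with #1 and 2 with #2, beside 6004 and 5751 of all 12387 usable genes. MME was 2.22-fold lower in reads for #1. The tubule markers PAX2, LRP2 and AQP1 and the clear cell carcinoma marker CA9 were at or below 0.064 RPKM in every library. The summed level of the 12 markers was 978, 1932 and 1942 RPKM. Most of it was VIM, KRT8 and KRT18, so the sum is not a measure of renal identity. Of 7 markers of other cells, COL1A1 alone had a usable level (4.68, 3.21 and 4.41 RPKM), and the leukocyte and endothelial genes PTPRC, PECAM1 and CDH5 were at or below 0.025 RPKM.

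A level was called usable when the mean over the 3 libraries was at least 1 RPKM, and 22 ABC genes passed. A further 22 lay under that limit, and ABCC2 was set aside because its entry contradicts itself. Differences between libraries are given as the log2 of RPKM plus 1 in the siRNA library minus the same in si-Control, a scale on which low genes appear to change less than they do. Ratios of recovered reads, scaled to the library totals, are given beside them with exact 95% intervals. These intervals cover counting error only.

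**Figure D1:**
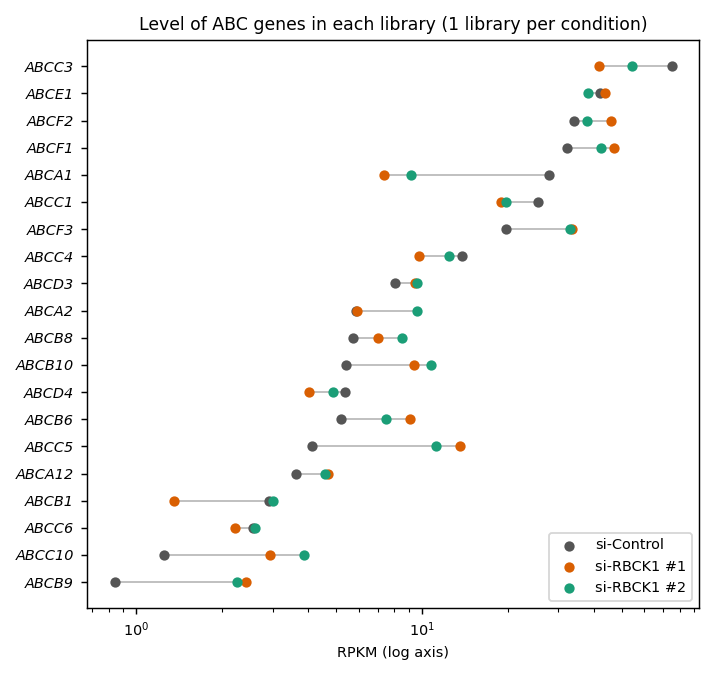
Level of 20 usable ABC genes in RPKM (horizontal log axis) in si-Control (grey), si-RBCK1 #1 (orange) and si-RBCK1 #2 (green), with 1 point per library and genes ordered by their si-Control level. ABCC3 leads in si-Control at 74.8 RPKM, ABCA1 moves from 27.8 to 7.39 and 9.13 RPKM, and ABCC5 moves from 4.11 to 13.6 and 11.2 RPKM.

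The 5 most abundant ABC genes of si-Control, by RPKM, were ABCC3, ABCE1, ABCF2, ABCF1 and ABCA1. At least 2-fold changes on the log2(RPKM + 1) scale were few. With si-RBCK1 #1, ABCC5 was at least 2-fold higher, 1 of 22 genes, where 2.85% of the 12387 usable genes of the table were. ABCA1 was at least 2-fold lower, also 1 of 22 genes, where 3.24% of all usable genes were. With si-RBCK1 #2, ABCC5 and ABCC10 were at least 2-fold higher, against 2.45% of all usable genes. ABCA1 was the only one at least 2-fold lower, against 2.24% of all usable genes.

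At a limit of 1.5-fold, si-RBCK1 #1 had 6 ABC genes higher, which is 27.3% of the 22, where 12% of all usable genes were. These were ABCC5, ABCC10, ABCB9, ABCB10, ABCB6 and ABCF3. It had 3 lower, ABCA1, ABCC3 and ABCB1, which is 13.6% against 11.5% of all usable genes. si-RBCK1 #2 had 7 higher, which is 31.8% against 11.2% of all usable genes. They included ABCC5, ABCC10, ABCB10, ABCB9, ABCF3 and ABCA2. It had 1 lower, ABCA1, which is 4.55% against 9.29% of all usable genes. The median difference over the 22 genes was 0.20 for #1 and 0.25 for #2 on the log2 scale, beside 0.02 and 0.03 over all usable genes. With each siRNA, 15 of the 22 lay above 0, which is 68.2%. Of all 12387 usable genes, 6382 lay above 0 with #1 and 6630 with #2. These shares depend on the level limit, which uses the mean of all 3 libraries. ABCB9 passed it with 0.838 RPKM in si-Control. ABCB4, ABCA10 and ABCA5 were above 1 RPKM in si-Control and lower with each siRNA, yet were left out. The differences were -0.85 and -0.62 for ABCB4 and -0.63 and -0.55 for ABCA10.

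**Figure D2:**
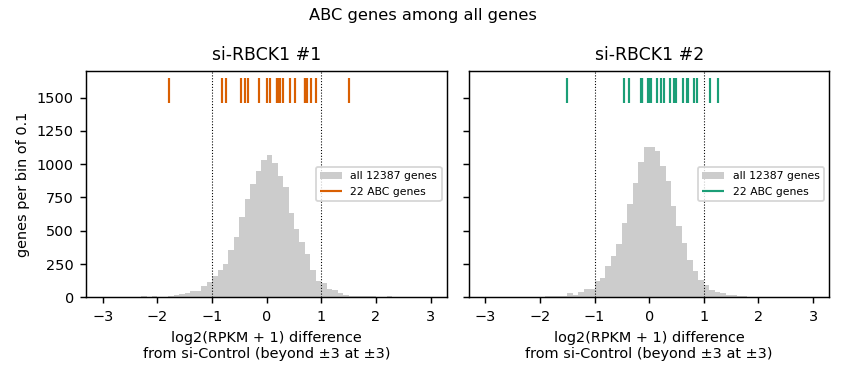
Distribution of the log2(RPKM + 1) difference from si-Control over all 12387 usable genes (grey, genes per bin of 0.1) for si-RBCK1 #1 (left) and si-RBCK1 #2 (right), with a coloured tick for each of the 22 ABC genes and dotted lines at 2-fold. Most ABC ticks lie to the right of 0, with ABCA1 alone beyond the left line in both panels.

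ABCA1 was the ABC gene furthest below si-Control with both siRNAs. It lies at chr9:107543283-107690527 on the minus strand and encodes the transporter that hands cholesterol and phospholipid from the cell to apolipoprotein A-I. Its level was 27.8 RPKM (10789 reads) in si-Control, 7.39 RPKM (3137 reads) in #1 and 9.13 RPKM (3485 reads) in #2. The log2(RPKM + 1) difference was -1.78 for #1 and -1.51 for #2. In reads, the #1 library held 26.5% of the si-Control level and the #2 library 32.8%. The log2 ratio of reads was -1.91 (-1.97 to -1.86) for #1 and -1.61 (-1.66 to -1.55) for #2, so both differences were far larger than counting error. Among the usable ABC genes it went from rank 5 by level in si-Control to rank 13 in #1 and rank 12 in #2.

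The other usable genes of the sterol and lipid group did not share that direction. ABCA2, a lipid transporter of endosomes and lysosomes, had 5.89 RPKM in si-Control, 5.90 in #1 and 9.57 in #2. Its difference was 0.62 for #2, while the value of 0.00 for #1 turned below 0 when libraries were scaled to equal medians or totals. ABCA12, which loads lipid into the lamellar granules of skin cells, had 3.62, 4.71 and 4.58 RPKM, with differences of 0.30 and 0.27. The summed level of these 3 genes was 37.3 RPKM in si-Control, 17.99 in #1 and 23.28 in #2, and ABCA1 held most of the si-Control sum. Among genes of the group under the level limit, ABCA10 and ABCA3 were lower with each siRNA in reads, and ABCA7 and ABCA13 higher.

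Drug and conjugate efflux genes included the strongest increases of the family. ABCC5 (chr3, minus strand) encodes an exporter of cyclic nucleotides and nucleotide analogues. Its level was 4.11 RPKM (1103 reads) in si-Control, 13.6 RPKM (3999 reads) in #1 and 11.2 RPKM (2970 reads) in #2, so both siRNA libraries were above si-Control. The log2(RPKM + 1) difference was 1.51 for #1 and 1.26 for #2. In reads, its level was 3.31-fold higher for #1 and 2.74-fold higher for #2, with log2 ratios of 1.73 (1.63 to 1.82) and 1.45 (1.35 to 1.55). It went from rank 17 of 22 in si-Control to rank 7 in #1 and rank 8 in #2.

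ABCC10 encodes an efflux pump of broad range whose substrates include taxanes. It had 1.25 RPKM (252 reads) in si-Control, 2.93 RPKM (647 reads) in #1 and 3.86 RPKM (767 reads) in #2. The log2(RPKM + 1) difference was 0.80 for #1 and 1.11 for #2, so only #2 passed the 2-fold limit on this scale. In reads, its level was 2.34-fold higher for #1 and 3.09-fold higher for #2, with log2 ratios of 1.23 (1.02 to 1.44) and 1.63 (1.42 to 1.84). The pseudocount of 1 RPKM is close to its si-Control level. ABCC10 overlaps the opposite-strand gene DLK2 over 74 bases, and DLK2 itself had 0.418, 0.839 and 1.26 RPKM. The part of DLK2 reads in the ABCC10 values was not tested.

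The efflux genes with the highest levels lay below si-Control. ABCC3, an exporter of glucuronide conjugates, was the most abundant ABC gene of si-Control with 74.8 RPKM, and had 41.8 RPKM in #1 and 54.3 in #2. Its difference was -0.83 for #1 and -0.46 for #2, past 1.5-fold for #1. It was the most abundant ABC gene of #2 as well, and was at rank 4 in #1 behind ABCF1, ABCF2 and ABCE1. ABCC1, which exports glutathione conjugates and leukotriene C4, had 25.5, 19.0 and 19.6 RPKM, with differences of -0.41 and -0.36. ABCC4, an apical exporter of cyclic nucleotides and organic anions in the tubule, had 13.8, 9.74 and 12.4 RPKM, with differences of -0.46 and -0.14. Neither ABCC1 nor ABCC4 passed 1.5-fold.

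ABCB1 and ABCC6 had low levels. ABCB1 encodes P-glycoprotein, the multidrug efflux pump, and had 2.92 RPKM in si-Control, 1.353 in #1 and 2.999 in #2. It was thus lower with #1 alone, with 46.3% of the si-Control level in reads and a log2 ratio of -1.11 (-1.33 to -0.89). Its ratio for #2 was 0.04 (-0.14 to 0.22). ABCC6, the gene of pseudoxanthoma elasticum, had 2.56, 2.21 and 2.61 RPKM, with differences of -0.15 and 0.02. The small positive difference for #2 turned below 0 for ABCB1 under equal medians, and for ABCC6 under equal medians and under equal totals. The summed level of the 7 usable efflux genes was 125, 90.6 and 107 RPKM, so the sum was lower in both siRNA libraries. ABCC3 held most of that sum, and without it the other 6 genes summed to 50.2, 48.8 and 52.8 RPKM, which is above si-Control for #2. With #1, 2 of the 7 genes lay above 0, with a median difference of -0.41. With #2, 4 of the 7 did, with a median of 0.02. Of all 12387 usable genes, 6382 lay above 0 with #1 and 6630 with #2, so the #2 count was close to that share.

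**Figure D3:**
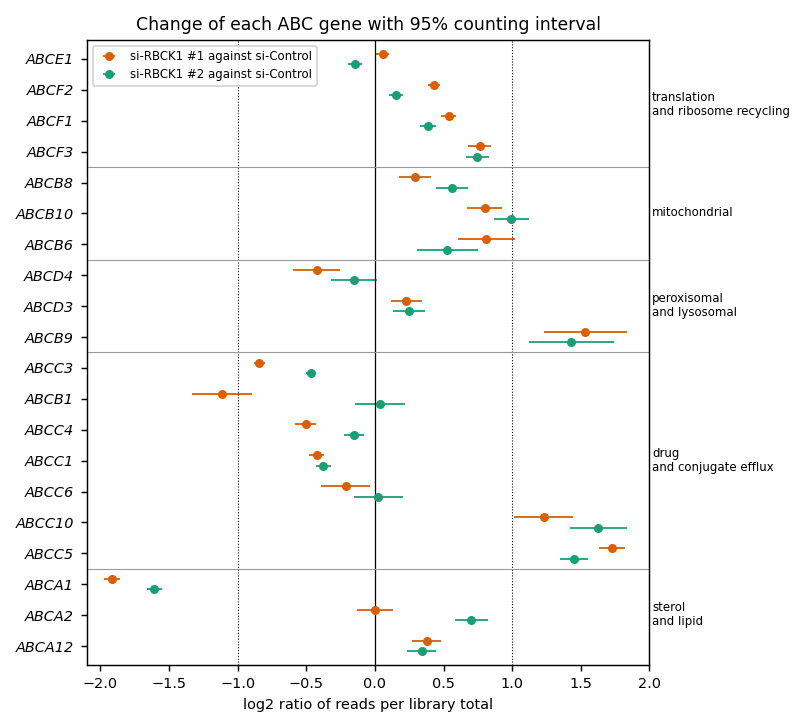
Log2 ratio of recovered reads per library total (horizontal axis) for 20 usable ABC genes, si-RBCK1 #1 (orange) and si-RBCK1 #2 (green) against si-Control, with bars for the exact 95% counting interval and dotted lines at 2-fold. Genes are grouped by role, with ABCA1 at -1.91 and -1.61 at the left end, and ABCC5 at 1.73 and 1.45 and ABCC10 at 1.23 and 1.63 on the right.

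The ABC genes that act on ribosomes were among the most abundant of the family. ABCF3 (chr3:183903863-183911795, plus strand) encodes a soluble ABC protein, and had 19.7 RPKM (1871 reads) in si-Control, 33.4 RPKM (3476 reads) in #1 and 33.0 RPKM (3085 reads) in #2. Its difference was 0.73 for #1 and 0.72 for #2, past 1.5-fold with both siRNAs. ABCF1, which promotes translation initiation, had 32.3, 46.9 and 42.3 RPKM, with differences of 0.52 and 0.38. It was the most abundant ABC gene of the #1 library. ABCF2, another soluble member, had 34.0, 45.8 and 37.9 RPKM, with differences of 0.42 and 0.15.

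ABCE1, which splits ribosomes into subunits after termination, had 42.0, 43.7 and 38.0 RPKM. Its difference of 0.06 for #1 turned to just below 0 when libraries were scaled to equal totals, and for #2 it was -0.14. ABCE1 shares 538 bases with ANAPC10 on the opposite strand, the only overlapping entry of a usable ABC gene above 2 RPKM, which had 7.14, 4.75 and 4.54 RPKM. The summed level of the 3 ABCF genes was 86.02 RPKM in si-Control, 126 in #1 and 113 in #2. The log2 ratios of reads of the ABCF genes ranged from 0.16 to 0.76, and none of their counting intervals contained 0.

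ABCB10, ABCB6 and ABCB8, which act in mitochondria, were each above si-Control in both siRNA libraries. ABCB10, an inner membrane protein needed for heme synthesis, had 5.41, 9.41 and 10.8 RPKM, with differences of 0.70 and 0.88. ABCB6, linked to porphyrin transport, had 5.19, 9.09 and 7.48 RPKM, with differences of 0.71 and 0.45. ABCB10 was past 1.5-fold with both siRNAs and ABCB6 with #1. ABCB8, another inner membrane transporter, had 5.74, 7.03 and 8.48 RPKM, with differences of 0.25 and 0.49.

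Among peroxisomal and lysosomal genes, ABCB9 lay furthest from si-Control. It encodes a lysosomal peptide transporter and had 0.838 RPKM (121 reads) in si-Control, 2.42 RPKM (383 reads) in #1 and 2.25 RPKM (320 reads) in #2. The log2(RPKM + 1) difference was 0.90 for #1 and 0.82 for #2, under the 2-fold limit. In reads its level was 2.89-fold higher for #1 and 2.69-fold higher for #2, with log2 ratios of 1.53 (1.23 to 1.84) and 1.43 (1.12 to 1.74). It passed the limit on usable levels although it lay under 1 RPKM in si-Control.

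ABCD3 and ABCD4 lay closer to si-Control than ABCB9. ABCD3, the peroxisomal importer of branched chain fatty acids and bile acid precursors, had 8.07, 9.46 and 9.59 RPKM, with differences of 0.21 and 0.22. ABCD4, which takes part in cobalamin release from lysosomes, had 5.40, 4.03 and 4.86 RPKM and was below si-Control, with differences of -0.35 and -0.13. Its counting interval for #2 contained 0.

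**Figure D4:**
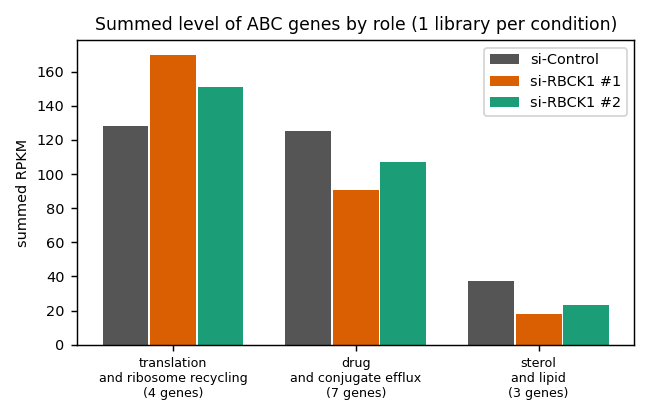
Summed RPKM of the usable ABC genes of 3 roles, ribosome, efflux and sterol and lipid (vertical axis from 0) in si-Control (grey), si-RBCK1 #1 (orange) and si-RBCK1 #2 (green), 1 library per bar and no error bars. The efflux sum is 125 RPKM in si-Control against 90.6 and 107, while the sum of the ribosome genes is 128 against 170 and 151.

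Over all 22 genes the summed level was 333 RPKM in si-Control, 334 in #1 and 341 in #2. The family total was thus 100.3% of si-Control in #1 and 102% in #2, while the sum of the ribosome genes was higher in both and that of the efflux genes lower, for #2 only with ABCC3 counted. Over all usable genes of the table, the summed RPKM was 104% of si-Control in #1 and 102% in #2.

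The siRNA libraries also differed from each other for some ABC genes. Measured as #1 minus #2 on the log2(RPKM + 1) scale, the difference was -0.77 for ABCB1 and -0.61 for ABCA2, both lower with #1. In reads, the log2 ratio of #1 to #2 was -1.15 (-1.37 to -0.93) for ABCB1 and -0.70 (-0.82 to -0.58) for ABCA2. ABCA1 was lower with #1 than with #2 by a log2 ratio of -0.31 (-0.38 to -0.24), and ABCC5 was higher by 0.28 (0.21 to 0.34). For ABCF3 the ratio was 0.02 (-0.05 to 0.09), and for ABCB9 it was 0.11 (-0.11 to 0.32). Since each siRNA has 1 library, a difference between siRNAs and a difference between libraries cannot be told apart.

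Seed matches were counted in the longest coding transcript of each gene. A site for the seed of #1 was present in 22.3% of 19669 genes, and for #2 in 25.9%. Of the 22 usable ABC genes, 6 held a site for #1 (ABCA1, ABCB10, ABCC1, ABCC4, ABCC5 and ABCD4) and 6 a site for #2 (ABCA1, ABCB10, ABCB8, ABCC4, ABCD3 and ABCF3). ABCA1, whose transcript of 10494 nt is long, held 4 sites for #1 and 3 for #2. ABCC5, which was higher with both siRNAs, held 1 site for #1. The part of seed matches in any of these differences was not tested.

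The start regions of ABCA1 and ABCC5, the genes furthest from si-Control in either direction on the log2(RPKM + 1) scale, are shown to let their sequence be set beside their levels. Each runs from 250 bases before to 50 bases after the RefSeq start, on GRCh38.p14 and on the gene's own minus strand, at chr9:104928106-104928405 for ABCA1 and chr3:184017835-184018134 for ABCC5. Capitals mark matches to the E-box CACGTG, the GC box GGGCGG on either strand, and TATAAA.
ABCA1: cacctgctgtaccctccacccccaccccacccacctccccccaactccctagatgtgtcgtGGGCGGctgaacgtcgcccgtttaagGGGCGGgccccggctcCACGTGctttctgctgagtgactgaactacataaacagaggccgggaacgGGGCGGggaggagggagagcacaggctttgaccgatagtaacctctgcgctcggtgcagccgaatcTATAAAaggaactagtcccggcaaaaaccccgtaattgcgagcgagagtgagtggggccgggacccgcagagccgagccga
ABCC5: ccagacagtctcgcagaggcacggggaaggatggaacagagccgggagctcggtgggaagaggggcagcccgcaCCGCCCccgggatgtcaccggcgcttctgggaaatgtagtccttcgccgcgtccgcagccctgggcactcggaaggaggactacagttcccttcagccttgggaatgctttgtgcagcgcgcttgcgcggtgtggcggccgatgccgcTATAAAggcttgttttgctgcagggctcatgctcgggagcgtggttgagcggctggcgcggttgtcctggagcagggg
Both windows are rich in G and C, with 62.7% for ABCA1 and 65.7% for ABCC5, beside a median of 58.3% over 27305 RefSeq promoters and of 65.5% over the 18 usable ABC genes with an entry.

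Among those 18 promoters, TATAAA was found in 2 (ABCA1 and ABCC5, which changed in opposite directions). It was found in 12% of all promoters, a similar share. The GC box GGGCGG was found in 12 of 18 and in 44.6% of all promoters. The E-box CACGTG was found in 3 of 18 (ABCA1, ABCB6 and ABCF1) and in 7.43% of all, and the antioxidant response element TGACNNNGC in 5 of 18 (ABCA2, ABCB6, ABCC4, ABCD4 and ABCF1) and in 13.6% of all. The AP-1 site TGANTCA was found in 0 of 18 and in 7.76% of all. The LXR element DR4, a direct repeat of AGGTCA spaced by 4 bases, was found in 0 of 18 and in 0.0183% of all. Motifs were searched on both strands, and a match is a description of letters, not of binding.

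Several ABC genes are neighbours on the chromosome. ABCC5 and ABCF3, both higher with each siRNA, lie 168114 bases apart on chromosome 3. The usable genes between them, AP2M1, DVL3 and EIF2B5, had differences from 0.18 to 0.41 for #1 and from 0.17 to 0.28 for #2, smaller than those of ABCC5 and ABCF3. ABCC1 and ABCC6 lie 6490 bases apart on chromosome 16, and ABCB4 and ABCB1 lie 28159 bases apart on chromosome 7. Reads of ABCC6 can be shared with its pseudogenes ABCC6P1 (0.179, 0.353 and 0.222 RPKM) and ABCC6P2 (0.153, 0.280 and 0.429 RPKM), so its values are uncertain to that extent.

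The entry of ABCC2, the apical exporter of conjugates in the proximal tubule, could not be used as listed. It lists 70.3 RPKM in si-Control, 141 in #1 and 141 in #2, which would place the gene at the top of the family in both siRNA libraries. These values do not give the fold change that the same entry carries, and no gene length up to 50000 nt turns them into whole reads. Of 23750 entries with a comparison, 17 failed this check, and ABCC2 was the only ABC gene among them, of 42 with a comparison. The other 44 ABC genes all gave whole reads.

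The decimals of the ABCC2 values alone, 0.288, 0.767 and 0.505 RPKM, give both the entry's own fold change and whole reads, namely 58, 169 and 100 at a length of 5446 nt. On that reading ABCC2 has a mean of 0.520 RPKM, under the limit for usable levels. The log2 ratio of reads was then 1.41 (0.97 to 1.87) for #1 and 0.81 (0.33 to 1.30) for #2. How the listed whole parts arose was not tested, and ABCC2 enters no count or median.

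Of the 22 ABC genes under the level limit, 3 exceeded 1 RPKM in si-Control. ABCB4, the phospholipid exporter of the bile canaliculus, had 1.58, 0.434 and 0.676 RPKM (233, 70 and 98 reads), with log2 ratios of reads of -1.87 (-2.27 to -1.48) and -1.23 (-1.58 to -0.88). ABCA10 had 1.36, 0.523 and 0.617 RPKM, with ratios of -1.38 (-1.68 to -1.09) and -1.15 (-1.44 to -0.86). Both were lower with each siRNA in reads, at levels near 1 RPKM. ABCA5, which shares 381 bases with ABCA10, had 1.02, 0.878 and 0.815 RPKM.

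A further 4 genes reached between 0.388 and 0.665 RPKM in their highest library. ABCA3, the surfactant lipid transporter of the lung, had 0.388, 0.146 and 0.191 RPKM (95, 39 and 46 reads). ABCA7 had 0.230, 0.464 and 0.541 RPKM (58, 128 and 134 reads). ABCA3 was thus lower and ABCA7 higher with each siRNA, at levels of well under 1 RPKM. ABCG2, the breast cancer resistance protein, had 0.415, 0.665 and 0.387 RPKM (73, 128 and 67 reads). ABCC9, a subunit of potassium channels, had 0.605, 0.278 and 0.478 RPKM (189, 95 and 147 reads).

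The remaining 15 genes stayed under 0.1 RPKM in every library, with 0 to 31 reads each. They were ABCA4, ABCA6, ABCA8, ABCA9, ABCA13, ABCB5, ABCB11, ABCC8, ABCC11, ABCC12, ABCD2, ABCG1, ABCG4, ABCG5 and ABCG8. ABCG1, which acts beside ABCA1 in cholesterol export in other cells, had 2, 3 and 1 reads. ABCB11, ABCD2 and ABCG8 had 0 reads in si-Control, which allows up to 0.017, 0.015 and 0.030 RPKM at 3 reads. ABCA13 had 10, 31 and 25 reads, with log2 ratios of reads of 1.501 (0.44 to 2.69) for #1 and 1.34 (0.24 to 2.57) for #2, at levels of at most 0.045 RPKM. ABCC12 had 1, 9 and 2 reads, with a ratio of 3.04 (0.19 to 8.49) for #1. For the other genes under 0.1 RPKM, a change was not detectable at this depth. No ABC gene was at 0 in all libraries.

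Genes that work with the ABC proteins were described by the same limits. No usable gene of the 5 lists given in this paragraph and the next was at least 2-fold changed with either siRNA on the log2(RPKM + 1) scale. Of all usable genes, 2.85% were higher and 3.24% lower with #1, and 2.45% higher and 2.24% lower with #2. Few were thus to be found in lists of this size. The share of all genes past 2-fold in reads was not counted. In reads, APOE was 2.12-fold lower, and the acetyltransferase gene NAT1 2.27-fold and SLC27A4 2.11-fold higher, for #1. CPOX was 2.10-fold and ALAD, another heme enzyme gene, 2.024-fold higher in reads for #2. Of the sterol regulators and targets of the liver X receptor (LXR), 8 of 9 had usable levels, with a median difference of 0.02 for #1 and 0.16 for #2. APOE, a lipid acceptor and LXR target like ABCA1, had 10.2, 4.83 and 8.22 RPKM, with differences of -0.95 and -0.28. NR1H2 and NR1H3, which encode the receptors, had differences of 0.45 and 0.62 and of -0.24 and -0.02. The LXR target SREBF1 had 12.6, 14.15 and 16.97 RPKM and was above si-Control with both siRNAs.

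Of the ribosome recycling and GCN2 pathway genes around ABCE1 and the ABCF genes, 9 of 9 in the table were usable, with medians of 0.29 and 0.24. GCN1, an activator of the kinase GCN2, had 18.5, 29.3 and 33.2 RPKM, while ETF1, the release factor, had 126, 111 and 98.3 RPKM. Of the iron-sulfur and heme genes around the mitochondrial ABCB genes, 23 of 23 were usable, with medians of 0.28 and 0.20. CPOX, an enzyme of heme synthesis, had 7.12, 13.3 and 15.0 RPKM, with differences of 0.82 and 0.98. Of the peroxisome genes around the ABCD genes, 14 of 15 were usable, with medians of 0.02 and 0.05. SLC27A4, a fatty acid transporter and acyl-CoA synthetase, had differences of 0.97 and 0.78, and ACSL4, another acyl-CoA synthetase, of -0.69 and -0.61. Of the xenobiotic sensors and conjugating enzymes, 13 of 22 were usable, with medians of 0.00 and 0.06. With each siRNA, 7 of the 13 lay above si-Control and 6 below. Of all 12387 usable genes, 6382 were above with #1 and 6630 with #2, a similar share. GSTP1, a glutathione transferase gene, had 312, 401 and 398 RPKM, with differences of 0.36 and 0.35. UGT2B7, which makes glucuronides of the kind that ABCC3 exports, had 28.77, 16.97 and 14.66 RPKM, with differences of -0.73 and -0.93. NFE2L2, which encodes the antioxidant regulator NRF2, had differences of -0.49 and -0.37, and its inhibitor KEAP1 of 0.64 and 0.67.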

How the data were processed

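RNA of Caki-1 cells was sequenced in 3 libraries, 1 per condition, from ribosomal RNA depleted, directional paired-end libraries per the labels, while the study's methods name another sequencing provider. The submitters' processing notes name FastQC, Trimmomatic, TopHat2 and HTSeq and the build hg19. The gene annotation and the strand setting of the counting are not given in the sources used here. The authors deposited 1 table of RPKM values per gene and library. The authors' own columns of log2 fold change, p-value and q-value were not used as results. The fold change served only for a yes or no check of each entry against its own RPKM values, within 1e-06 on the log2 scale.

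Differences were taken on log2(RPKM + 1) where the mean of the 3 libraries reached 1 RPKM, and limits of 2-fold and 1.5-fold were applied. Library totals were found from entries of up to 200 nt, and whole reads from the smallest length up to 50000 nt that gives whole reads in all libraries. Exact Clopper-Pearson intervals (95%) on reads cover counting error only. The members, lists and settings were chosen with earlier results of these data known. Of the usable ABC genes, 20 were named, and values of the others are not reported here, although they enter the counts, medians and totals of the family. Genes under the limit, the members named from lists, and the genes shown with sequences were picked after their values were seen. siRNA sites were searched in GENCODE v29 transcripts, and promoters came from RefSeq (35 of 45 genes matched). Libraries of 12387 genes were simulated with counting error only, and each siRNA was compared with si-Control. Of 200 genes with a true log2 change of 2, 179 passed the 2-fold limit with both siRNAs, since the pseudocount shrinks low genes. Of 12187 unchanged genes, 0 passed. The simulation held no spread between cultures, so this is not a rate of false calls for these data. Counting intervals held the true value for 95.25% of 2000 genes, and reads were recovered for 40 of 40 genes up to a common factor, so recovered reads are a minimum. Alternatives were other pseudocounts, filters, scalings and limits, and other values for ABCC2. The work was done in Python 3.11.15 with scipy 1.17.1, pandas 2.3.3, numpy 2.4.6 and matplotlib 3.10.9.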

Additional observations from a re-analysis of the deposited data

How the results depend on the processing

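No paired analysis was possible because there was 1 library in each condition, which also meant that no replicate could be left out. With a pseudocount of 0.1 RPKM, si-RBCK1 #1 had 3 ABC genes at least 2-fold higher (ABCC5, ABCB9 and ABCC10) and 2 lower (ABCA1 and ABCB1), in place of 1 and 1. With a pseudocount of 5 RPKM, si-RBCK1 #2 had 0 higher in place of 2, since ABCC5 was then at 0.83 and ABCC10 at 0.50, and with a mean of at least 5 RPKM it had 1, ABCC5. At 1.5-fold, the higher and lower counts were 6 and 3 for #1, and for #2 the higher count was 7. At 4-fold they were 0 and 0 for #1 and 0 and 0 for #2. Without a filter on low values, 44 genes entered in place of 22, and the median differences were 0.018 for #1 and 0.018 for #2. The other counts stayed within 1.5 times, and the medians ranged from 0.14 to 0.23 for #1 and from 0.16 to 0.30 for #2, over the other pseudocounts, a mean of at least 5 RPKM, equal medians, equal totals, ABCC2 as listed, or ABCC2 from its decimals, the last of which was chosen after seeing the data.

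For 176 single values under these alternatives, the shift from the main value was set against the counting interval of the reads. The shift was at most the distance from that interval's centre to its end for 139, and larger for 37. Of the called values, 0 changed sign. A pseudocount cannot change a sign, and the scalings moved values by far less than 2-fold, so this outcome was fixed in advance. The values that changed sign were 6 small ones, of ABCA2, ABCC6, ABCB1 and ABCE1, under equal medians or equal totals. Scaling moved the median over all usable genes by less than 0.1 on the log2 scale. With 1 library per condition, depth limits only the counting error, and the spread between cultures is unknown.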

Other observations

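The organic anion and cation carriers of the kidney, some of which bring substrates of the ABC efflux pumps into the cell, were mostly at low levels in Caki-1 cells. Of 14 such genes, 3 had usable levels. SLCO4A1, an organic anion carrier, had 21.2 RPKM in si-Control, 36.6 in si-RBCK1 #1 and 41.7 in si-RBCK1 #2, with log2(RPKM + 1) differences of 0.76 and 0.95. SLC22A5, the carnitine carrier, had 3.49, 3.48 and 3.50 RPKM, and SLCO3A1 had 2.34, 2.12 and 1.82 RPKM. The proximal tubule carriers SLC22A2, SLC22A6 and SLC22A8 were at or below 0.050 RPKM in every library.

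TAP1 and TAP2, which form the ABC peptide transporter for antigen presentation, had 16.7, 22.1 and 18.1 RPKM and 19.4, 17.1 and 18.3 RPKM. CFTR, the ABC chloride channel, was at or below 0.040 RPKM. KCNJ8, a potassium channel pore that pairs with the ABCC9 protein, had 0.623, 1.66 and 1.13 RPKM, while ABCC9 was highest in si-Control. Of the ABC pseudogenes, ABCA11P had 3.39, 2.31 and 2.42 RPKM.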
